A study of Mus musculus with 8 samples.

Results

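The genes described here are the translation initiation and elongation factors, chosen as every gene symbol of the array's gene table that starts with Eif or Eef and a digit. The set was chosen with earlier results of these data known, but its rule used names and no measured value. It found 59 genes among the 15123 genes measured, of which 47 are named as initiation factors or their partners and 12 as elongation factors or their modifying enzymes. All 59 genes entered the analysis, 30 of them with 1 probe and 29 with several, and no filter on low values was applied.

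The arrays compared intestinal crypt cells of mice carrying the Lgr4/Gpr48 Gt allele, a gene trap described as null and back-crossed onto the CD1 background, with crypt cells of wild-type CD1 mice. Lgr4 is a surface receptor that binds R-spondins and so amplifies the Wnt pathway. Each of 8 MEEBO arrays, which carry long oligonucleotide probes against mouse exons, was hybridised, per the array labels, with null RNA and wild-type RNA in different dyes. For the LiCl arrays the series text describes another comparison, so what their other channel holds is in doubt. The 4 groups of 2 arrays were crypts labelled day 0, those cultured for 0.5 days or for 1 day, and crypts kept for 1 day with LiCl, which blocks the kinase GSK3. Both genotypes were cultured alike within each group per the array labels, in crypt medium with fetal bovine serum, and a gene trap can leave some normal transcript. The age and number of the animals, the dose of LiCl and whether paired arrays came from different cultures are not given in the labels, so p-values measure only the spread between arrays, which may be technical.

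Every value below is a log2 ratio of 1 gene or probe on 1 array, or a fitted value for a group of n = 2 arrays with its standard error (SE). At day 0.5 both arrays are labelled with null RNA in the same dye. The fitted day 0.5 value is therefore not their plain mean. It is shifted by a dye term estimated from the other 6 arrays, the LiCl arrays among them. A ratio below 0 is read as lower in null than in wild-type cells. That direction is likely rather than stated: null RNA is the first channel in the labels, and all 6 measured Paneth cell markers were below 0 and past the test at day 0 and at day 1, and the study's title names Paneth cell differentiation. The LiCl arrays have no settled direction. They correlated below 0 with all 6 other arrays over genes, with r from -0.58 to -0.12, whereas the untreated groups correlated with each other at 0.19 to 0.55, and their other channel may hold RNA other than that of LiCl-treated wild-type crypts. Their values are therefore given as deposited and with the sign turned, and neither sign makes a difference from the other arrays surely a change of the null to wild-type ratio. A gene is called when its adjusted p from limma, with Benjamini-Hochberg adjustment over all 15123 genes, is under 0.05.

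The array medians over all probes lay between -0.006 and 0.001, so the values were centred when deposited and show changes relative to the typical gene, not in total RNA or protein synthesis. Only ratios were available, so signal over background and the level of each gene are unknown, and the labelled tissue could be checked only by the ratios of its markers. Lgr4 itself had 0 named probes, so the trapped gene was not analysed here. In whole crypts, fewer cells of a type and less RNA per cell cannot be told apart. Of 8 epithelial markers, 4 were called higher in null cells at day 1, and 1 of 8 mesenchymal markers (Vim) was called higher. Of 7 immune markers 1 (H2-Ab1) was called lower at day 1. Among all genes 9.38% were called higher and 11.1% lower at day 1, so the mesenchymal and immune counts are near that background. At day 0, 5 of 7 immune and 2 of 8 mesenchymal markers were called lower, against 1.01% of all genes.

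Translation of a messenger RNA starts when eIF4F, the complex that holds the 5′ cap, recruits a small ribosomal subunit loaded with eIF3, the scanning factors and the eIF2 ternary complex, which carries the initiator transfer RNA. eIF2 must be recharged with GTP by eIF2B after each round, and stress kinases stop that step by phosphorylating eIF2. Elongation then needs eEF1A and its exchange factors to deliver each aminoacyl transfer RNA, and eEF2 to move the ribosome along the codons. Crypt base cells divide quickly and make much protein, and many messenger RNAs of the translation machinery begin with a run of pyrimidines whose use by the ribosome is set by the kinase mTORC1. The sequence CACGTG, an E-box, is known as a binding site of the Myc and USF families.

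Because many of these genes were lower at day 1, their promoters are shown before the values. RefSeq windows of 250 bases before to 50 bases after each start, on the mouse build GRCm38.p6, were found for 47 of the 59 genes. CACGTG, which reads the same on both strands, stood in 15 of their 62 windows (24.19%), against 7.15% of all 32851 windows in the table. Windows of 1 gene can overlap, and 1 site of Eif5a was counted in more than 1 window. By gene, CACGTG stood in 13 of the 47, and the share by gene over all genes is not given here. Of the 31 members called lower at day 1 (11.1% of all genes were), 25 had a window and 8 of these held it, against 5 of 22 of the other members. The windows of Eef2, Eif1b, Eif3f, Eif3k and Eif4a1, all called lower at day 1, read as follows 5′ to 3′ on the gene's strand, with CACGTG in capitals.
Eef2, 43 bases before the start, chr10:81176571-81176610, plus strand: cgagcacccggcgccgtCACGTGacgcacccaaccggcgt
Eif1b, 24 bases before the start, chr9:120492565-120492604, plus strand: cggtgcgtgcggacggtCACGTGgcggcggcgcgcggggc
Eif3f, 68 bases before the start, chr7:108934330-108934369, plus strand: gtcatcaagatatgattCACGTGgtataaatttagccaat
Eif3k, 44 bases before the start, chr7:28981910-28981949, minus strand: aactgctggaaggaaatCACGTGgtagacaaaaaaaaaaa
Eif4a1, 189 bases before the start, chr11:69672590-69672629, minus strand: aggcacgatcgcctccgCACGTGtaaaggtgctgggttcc

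A run of at least 10 letters C or T was searched on the gene's strand within 25 bases either side of the start. It stood in 14 of the 62 windows (22.58%) and in 9.28% of all windows. By gene it stood in 13 of 47, as the run of Eif4enif1 was counted in more than 1 window. Of the members called lower at day 1, 6 of 25 had such a run, and of the others 7 of 22. The runs of Eif2s3x, Eif3f and Eif3m, in capitals, show what these starts look like. A match is a description of the letters and does not show binding or control.
Eif2s3x, run of 16 letters from 5 bases before the start, chrX:94212636-94212661, minus strand: gagcaTTTTCCTTTTCTCTCCgagca
Eif3f, run of 15 letters from 4 bases before the start, chr7:108934406-108934430, plus strand: ctaggCTCTCTCTCTTTCTCggcaa
Eif3m, run of 11 letters from 20 bases before the start, chr2:105017032-105017052, minus strand: caccgCTCTCTTTTCCggtcg

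At day 1 the translation factors were lower in null crypts as a broad group. Of the 59 genes, 31 were called lower and 3 higher, while 20.5% of all 15123 genes were called (11.1% lower and 9.38% higher). The median log2 ratio of the members was -0.46, against 0.00 for all genes, and 49 of 59 lay below 0. On both arrays 41 members (69.5%) were below 0, against 33% of all genes. The median of the members was -0.47 on array 1 and -0.43 on array 2 and these arrays carried opposite dyes.

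**Figure D1:**
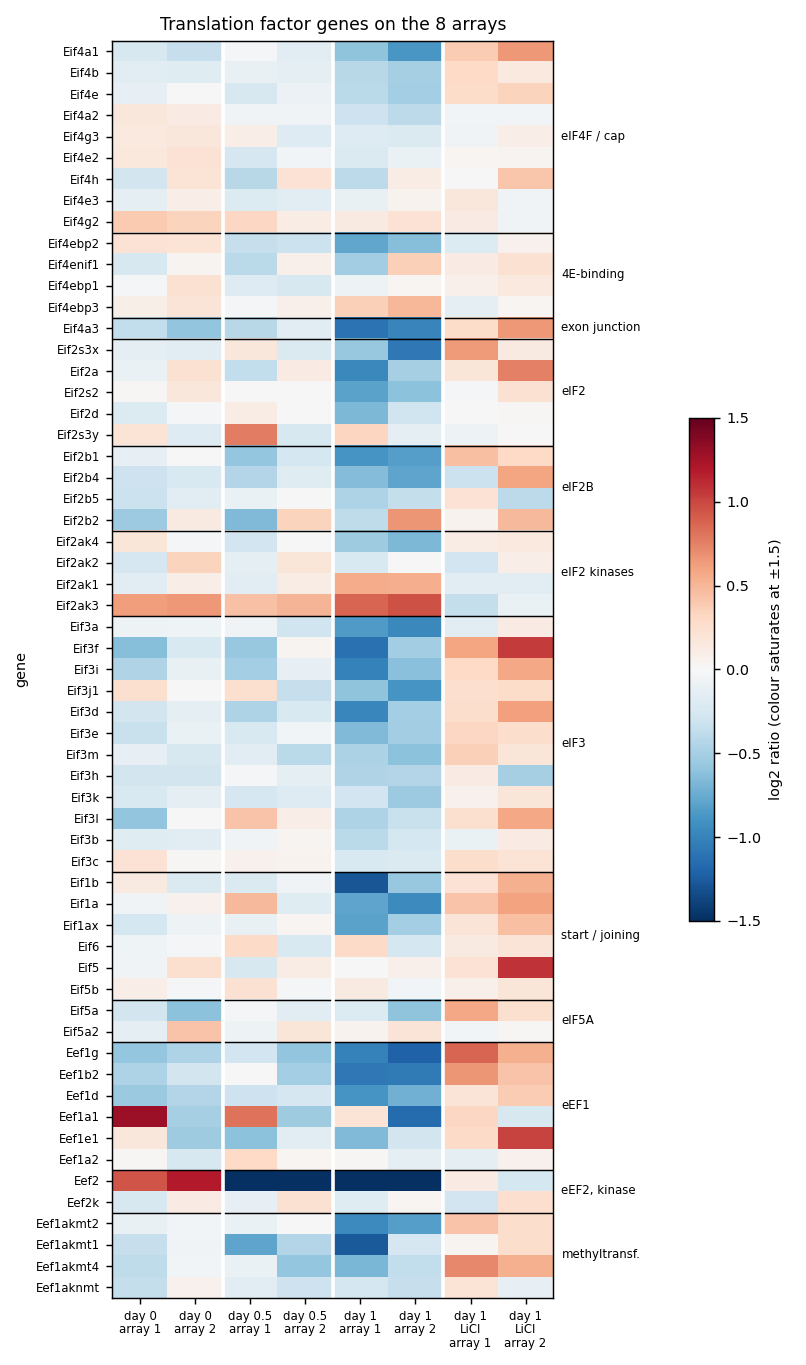
Log2 ratio (colour, saturating at ±1.5; blue below 0, red above 0) of the 59 translation factor genes (rows, grouped by role) on the 8 arrays (columns), LiCl arrays as deposited. Blue fills most rows of both day 1 columns, and Eef2 runs from red at day 0 to the strongest blue at day 0.5 and day 1.

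For the settings that follow, the share of all genes called is not given here, so the counts have no background beside them. The number called depended on the arrays kept. It was 8 without day 1 array 1 and 13 without array 2, and 18 with arrays scaled to equal spread, and 5 of the 34 calls (Eef2, Eef1g, Eef1akmt2, Eif3a and Eif2ak3) held whichever single array was left out. Of the 34 calls 16 were of genes with several probes, and every probe passed the test singly for 6 of these (Eif1ax, Eif2b1, Eif2s2, Eif3a, Eif4a1 and Eif4ebp2) and some of the probes for the other 10.

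In eIF4F and its cap-binding relatives, 4 of 9 measured genes were called lower, with a median of -0.21. Eif4a1, the helicase that unwinds the 5′ leader, was -0.60 and -0.87 on the day 1 arrays. It was -0.25 and -0.35 at day 0, and -0.02 and -0.17 at day 0.5. Its fitted day 1 ratio was -0.74 ± 0.10 (SE; 1.67-fold lower, limma adjusted p = 0.00213). The change of its ratio to day 1 was not called from day 0 or from day 0.5 (limma adjusted p = 0.109 and 0.139). Eif4e, which binds the cap itself, was -0.41 and -0.51 (fitted -0.46 ± 0.10, adjusted p = 0.0164). Eif4b, which stimulates the helicase, was at -0.42 and -0.50 (fitted -0.46 ± 0.10, adjusted p = 0.0142), a call carried by 1 of its 2 probes. Fitted singly, mMC022227 was at -0.83 ± 0.16 (adjusted p = 0.00844) and mMR031118 at -0.08 ± 0.13 (adjusted p = 0.821). The scaffold-like factor Eif4g2, which lacks the site for eIF4E, averaged 0.13 and 0.21 and was not called. Its probes had opposite signs, with mMA033339 at 0.40 and 0.85 and mMC022360 at -0.14 and -0.43.

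The fourth call, Eif4a2, a close relative of Eif4a1, rested on 1 of its 4 probes. Probe mMC005371 gave -0.85 and -1.12 at day 1, whereas probes mMA033478 and mMA034513 gave values between -0.16 and 0.13. Probe mMR026194 lay between, at -0.36 and -0.48. Fitted singly, mMC005371 alone was called (-0.99 ± 0.14, adjusted p = 0.00212), and the average over the gene was -0.35 ± 0.09 (adjusted p = 0.0327).

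The proteins that hold eIF4E back moved in different directions. Eif4ebp2 was -0.78 and -0.64 at day 1 (fitted -0.71 ± 0.11, adjusted p = 0.00331). Eif4ebp3 was 0.36 and 0.49 (fitted 0.43 ± 0.10, adjusted p = 0.0248). Eif4ebp1 stayed close to 0, at -0.08 and 0.03, and Eif4enif1, the transporter of eIF4E, gave opposite signs on the 2 arrays, -0.52 and 0.36. Neither of these last genes was called. Eif4a3, which shares the helicase family but sits in the exon junction complex left by splicing, was lower by 2.07-fold, with -1.11 and -0.99 on the arrays (fitted -1.05 ± 0.12, adjusted p = 0.00131).

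The eIF2 list had the lowest median of the initiation lists with more than 1 gene, -0.71, and 4 of its 5 genes were called lower. Eif2s2, the beta subunit, was -0.81 and -0.62 (fitted -0.71 ± 0.11, adjusted p = 0.00413). Eif2s3x, the X-linked gamma subunit, was -0.56 and -1.07 (fitted -0.82 ± 0.18, adjusted p = 0.0164). Its Y-linked copy Eif2s3y was not called and had opposite signs on the 2 arrays, 0.32 and -0.13. Near-identical copies such as this pair can share probe signal, which was not tested. Eif2a and Eif2d, which can bring transfer RNA to the ribosome outside the ternary complex, were called as well, at -0.73 ± 0.20 and -0.48 ± 0.11.

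Of 4 measured subunits of eIF2B, the exchange factor of eIF2, 2 were called. Eif2b1, the alpha subunit, was -0.88 and -0.82 (fitted -0.85 ± 0.11, adjusted p = 0.00182), and Eif2b4, the delta subunit, -0.65 and -0.79 (fitted -0.72 ± 0.17, adjusted p = 0.0243). Eif2b5, the catalytic subunit, was -0.46 and -0.36, just outside the threshold at adjusted p = 0.0503. The arrays split for Eif2b2, at -0.38 and 0.66.

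The kinases that phosphorylate eIF2 held 2 of the 3 members called higher. Eif2ak3 (PERK), which senses unfolded protein in the endoplasmic reticulum, was 0.87 and 0.96 at day 1 (fitted 0.92 ± 0.10; 1.89-fold higher, adjusted p = 0.00112). It was above 0 on all 6 arrays without LiCl, with 0.63 and 0.65 at day 0 and 0.44 and 0.51 at day 0.5. Eif2ak1 (HRI), which responds to lack of heme, was 0.55 on both day 1 arrays (fitted 0.55 ± 0.11, adjusted p = 0.0116) and lay between -0.16 and 0.11 on the 4 earlier arrays. Eif2ak4 (GCN2), the sensor of uncharged transfer RNA, went the other way, with -0.53 and -0.67 (fitted -0.60 ± 0.11, adjusted p = 0.00728). Eif2ak2 (PKR), which binds double-stranded RNA, was at -0.23 and 0.00 and was not called.

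All 12 measured eIF3 subunits, which form the scaffold on the small ribosomal subunit, had day 1 ratios below 0, and 8 of them were called. The list's median was -0.57, and the 8 measured subunits of its structural octamer had 5 calls and a median of -0.50. Eif3a, the largest subunit and the base of that core, was -0.85 and -0.97 (fitted -0.91 ± 0.11, adjusted p = 0.00139). Eif3f was -1.12 and -0.53, a wide gap between arrays that shows in its larger error (fitted -0.82 ± 0.21, adjusted p = 0.0310). Eif3i, Eif3j1 and Eif3d had fitted ratios of -0.82 ± 0.15, -0.75 ± 0.15 and -0.74 ± 0.15, Eif3m -0.55 ± 0.11 and Eif3k -0.42 ± 0.10. Fitted singly, Eif3m probe mMR029133 was called (-0.86 ± 0.14) and mMC004525 was not (-0.23 ± 0.12). For Eif3i and Eif3j1, 2 of 3 probes each were called singly. The member nearest 0 was Eif3c, at -0.23 and -0.21, not called.

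Eif3e was called (fitted -0.59 ± 0.10, adjusted p = 0.00561), but its probes disagreed. Probe mMR028250 gave -1.19 and -1.20 at day 1, and probe mMC014169 gave -0.13 and 0.15. The first was called by itself (-1.19 ± 0.12, adjusted p = 0.000697) and the other was not (0.01 ± 0.12).

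Among the factors of start codon choice and subunit joining, 3 of 6 were called lower, and these were the scanning factors. Eif1b, a paralog of the start codon selection factor eIF1, was -1.28 and -0.56 (fitted -0.92 ± 0.19, adjusted p = 0.0126). Eif1a was -0.79 and -0.96 (fitted -0.88 ± 0.16, adjusted p = 0.00846), and its X-linked relative Eif1ax -0.80 and -0.51 (fitted -0.66 ± 0.12, adjusted p = 0.00876). Eif5, which triggers GTP hydrolysis by eIF2, and Eif6, which keeps the ribosomal subunits apart, had fitted ratios of 0.04 ± 0.20 and 0.01 ± 0.16. They were not called.

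Eif5b, which joins the subunits, had a fitted ratio of 0.04 ± 0.10 made of unlike probes. Probe mMC022285 was called lower by itself, with -0.80 and -0.66 at day 1 (-0.73 ± 0.13, adjusted p = 0.00671). Probes mMC023162 and mMR028974 lay above 0 on both arrays, from 0.18 to 0.62, and were not called. In eIF5A, the hypusine-carrying factor that helps the ribosome past difficult peptides, neither gene was called: Eif5a was -0.21 and -0.60, and Eif5a2 0.06 and 0.20. Of the 3 Eif5a probes, mMC011340 was called lower by itself, with -1.04 and -0.74 (-0.89 ± 0.14, adjusted p = 0.00418), and the others were not, at -0.33 ± 0.34 and -0.00 ± 0.17.

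**Figure D2:**
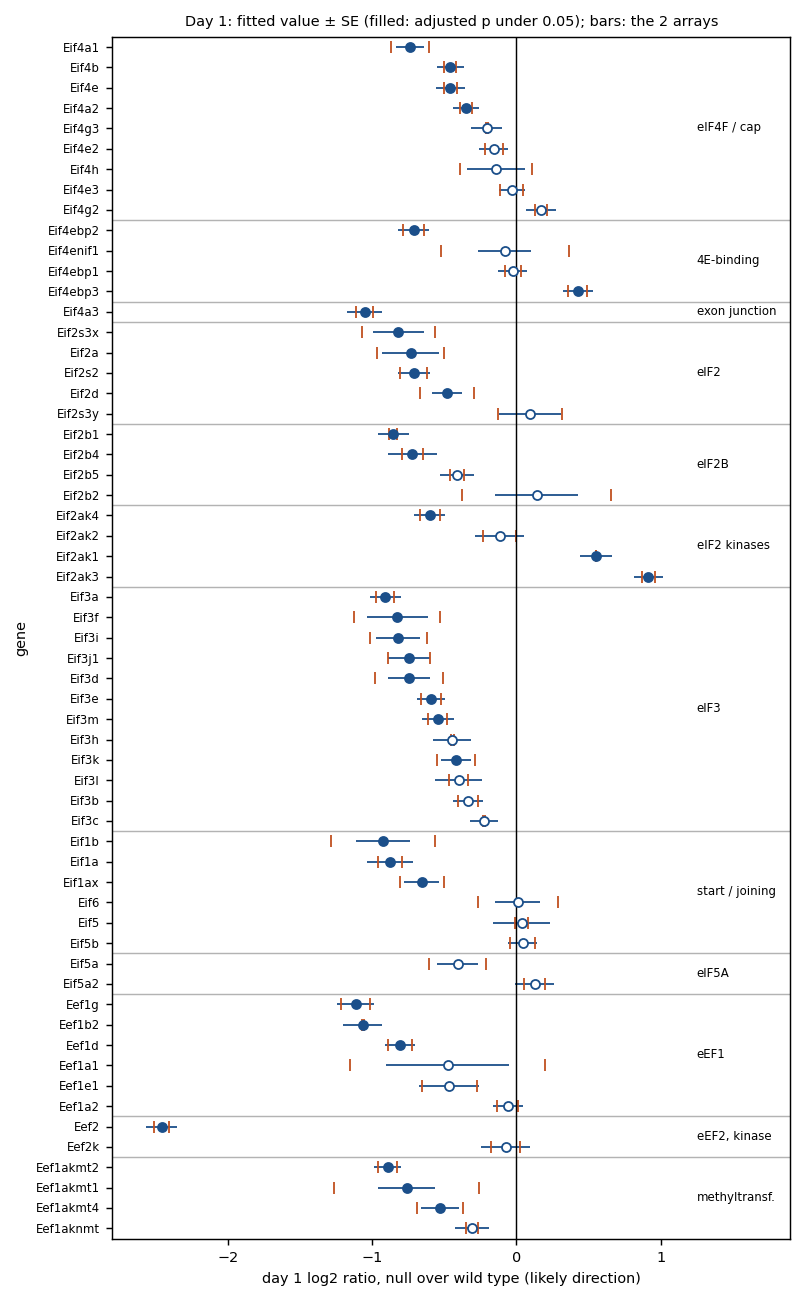
Fitted day 1 log2 ratio (points, with SE bars; filled where adjusted p is under 0.05) and the 2 array values (vertical ticks) of each gene, by role. Of 59 points 31 are filled to the left of 0 and 3, Eif2ak3, Eif2ak1 and Eif4ebp3, to its right, and all 12 eIF3 genes and all 12 elongation genes lie left of 0.

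Elongation factors were lower about as often as initiation factors. Of 12 elongation genes 7 were called lower and none higher, with a median of -0.65, while of 47 initiation genes 24 were called lower and 3 higher, with a median of -0.42. Without Eef2 the elongation list had 6 of 11 called and a median of -0.53. The medians of the 2 lists stood farther apart on array 1 (-0.79 against -0.46) than on array 2 (-0.55 against -0.43), and the difference between the lists was not tested.

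The 3 exchange subunits that recharge eEF1A were all called lower. Eef1g was -1.01 and -1.21 (fitted -1.11 ± 0.13; 2.16-fold lower, adjusted p = 0.00123). Eef1b2 was -1.07 and -1.06 (fitted -1.06 ± 0.14, adjusted p = 0.00179). Eef1d, at -0.89 and -0.72 (fitted -0.81 ± 0.10, adjusted p = 0.00191), had 2 probes that agreed and 1 that did not. Probes mMA035240 and mMC020913 were called by themselves, at -1.25 ± 0.11 and -1.03 ± 0.18, and mMC025293 was not, at -0.14 ± 0.11. Eef1g, Eef1b2 and Eef1d had fitted day 0 ratios of -0.52, -0.37 and -0.49, not called. The change from day 0 to day 1 was not called for any of them in the fit as reported. With a term for the array number added, limma called Eef1d and Eef1g lower at day 0 (adjusted p = 0.0367 and 0.0410). It then also called Eef1g and Eef1b2 lower from day 0 to day 1 (adjusted p = 0.04004 and 0.03815). The share of all genes called with that term is not given here.

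Eef1a1, the main carrier of aminoacyl transfer RNA and measured by 1 probe, followed the array number more than the group. Its array 1 and array 2 values were 1.28 and -0.50 at day 0, 0.82 and -0.53 at day 0.5, 0.20 and -1.15 at day 1, and 0.31 and -0.24 with LiCl. Array 1 was the higher in all 4 groups, and the fitted day 1 ratio of -0.48 ± 0.43 was not called. With a term for the array number added to the fit it was called (limma adjusted p = 0.0233), but the share of all genes called with that term is not given here. The labels do not say what that number marks. The gap of 1.78 at day 0 was the widest of any member in that group, where the median gap was 0.19. Eef1a2, its muscle and nerve paralog, had a fitted ratio of -0.06 ± 0.10, and Eef1e1, a part of the aminoacyl-synthetase complex, -0.47 ± 0.21. Neither was called.

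Enzymes that methylate eEF1A had 3 of 4 members called lower. Eef1akmt2 was -0.96 and -0.83 (fitted -0.89 ± 0.09, adjusted p = 0.000796), whereas its 4 earlier arrays lay between -0.11 and -0.01. Eef1akmt4 was -0.69 and -0.37 (fitted -0.53 ± 0.13), and Eef1akmt1 -1.26 and -0.26 (fitted -0.76 ± 0.20). Eef1aknmt, the enzyme for the amino end, was not called at -0.31 ± 0.12.

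Eef2, the factor that moves the ribosome, had the largest fitted ratio of all members in each untreated group, and its sign differed between day 0 and the later times. Averaged over its 3 gene probes, it was 0.95 and 1.18 at day 0, -1.58 and -1.83 at day 0.5, -2.52 and -2.41 at day 1, and 0.13 and -0.26 with LiCl. Both arrays of a group lay close together in this average, which 1 of the 3 probes (mMC019510) did not follow. The fitted ratio was 1.07 ± 0.11 at day 0 (2.09-fold higher, adjusted p = 0.00561), -1.59 ± 0.12 at day 0.5 (3-fold lower, adjusted p = 0.00648) and -2.46 ± 0.11 at day 1 (5.5-fold lower, adjusted p = 6.015e-05). Among all 15123 genes, 9 of the 174 called at both times were higher at day 0 and lower at day 1, and Eef2 was the 1 gene with at least 1 log2 unit in each. Its kinase Eef2k, which inhibits eEF2, was not called at any time and had a day 1 ratio of -0.07 ± 0.17.

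The probes of Eef2 did not move alike. Probe mMR029029 was 1.44 and 1.92 at day 0, -2.69 and -3.42 at day 0.5, and -4.09 and -3.71 at day 1. Probe mMC019223 followed it, with 1.30 and 1.73, then -2.16 and -2.22, then -3.46 and -3.22. Probe mMC019510 stayed near 0, between -0.28 and 0.15 on these 6 arrays. The array also holds 19 probes of its control series that carry the name Eef2, which were kept out of the gene average.

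Over all 22 Eef2 probes, 5 were above 0.8 on average at day 0 and below -2 at day 1. These 5 ran from 0.82 to 1.92 at day 0, from -3.88 to -0.99 at day 0.5 and from -4.09 to -2.45 at day 1. A further 3 probes were between -2.55 and -0.77 at day 1 and between -0.37 and 0.72 at day 0. The other 14 stayed between -0.67 and 0.56 at day 1. On the LiCl arrays all 22 lay between -0.77 and 0.54. With the control-series probes averaged in, the day 0 ratio was 0.29 and the day 0.5 ratio -0.55, and neither was called, while the day 1 ratio was -1.16 and still called. Probe sequences and their places along the transcript were not used here, so which probes report the Eef2 transcript was not tested.

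**Figure D3:**
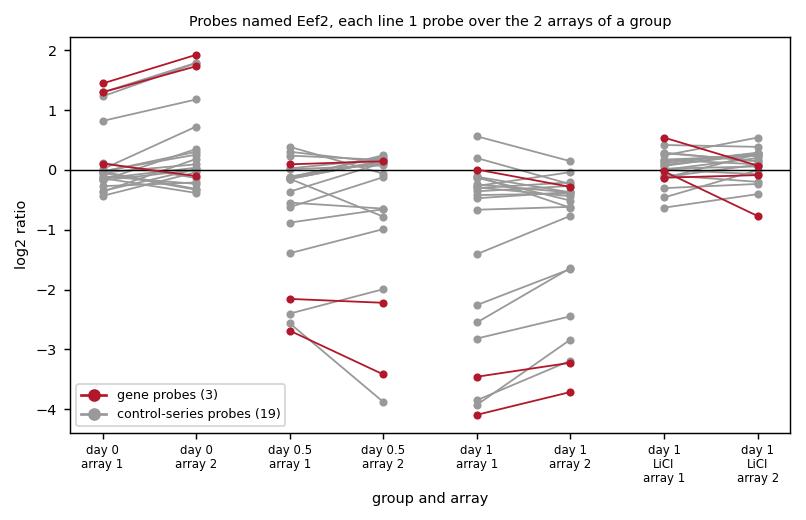
Log2 ratio of each probe named Eef2 (lines join the 2 arrays of a group; 3 gene probes in red, 19 control-series probes in grey) in the 4 groups, LiCl as deposited. A few probes sit far above 0 at day 0 and far below it at day 0.5 and day 1, while 14 of 22 stay near 0.

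Before day 1 few members were called. At day 0, 2 of 59 members were called, both higher, against 2.23% of all genes (1.22% higher and 1.01% lower), so the share is near the background. They were Eef2, given above, and Eif2ak3 (fitted 0.64 ± 0.10, adjusted p = 0.0305). Fitted singly, Eef1d probe mMA035240 was called lower at day 0 (-0.78 ± 0.11, limma adjusted p = 0.02025). The other Eef1d probes, mMC020913 (-0.73 ± 0.18) and mMC025293 (0.03 ± 0.11), were not. The call of Eef2 was lost without either day 0 array (1.06 and 1.07), and that of Eif2ak3 when any of the 6 untreated arrays was left out (0.59 to 0.69). At day 0.5, 1 of 59 members was called, Eef2, against 0.436% of all genes (0.278% higher and 0.159% lower), and that call was lost when either day 0 array was left out (-1.58 in both cases). Members lay below 0 on both arrays for 28 of 59 (47.5%) at day 0 and 29 of 59 (49.2%) at day 0.5, against 30.7% and 28% of all genes. These counts use array values without the dye term. Both day 0.5 arrays are labelled with null RNA in the same dye, so the 2 counts are not fully alike. The member medians were small, -0.07 at day 0 and -0.09 at day 0.5.

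The change of the ratio between times was tested directly. From day 0 to day 0.5, Eef2 was the 1 member called, at -2.65 ± 0.17 (adjusted p = 0.0116), against 0.132% of all genes (0.0727% higher and 0.0595% lower). It was called again without day 0.5 array 2 or either LiCl array, and was lost without any of the other 5. By limma's unadjusted p under 0.05, 3 of 59 members passed, against 8.83% of all genes. From day 0.5 to day 1, Eef1akmt2 was the 1 member called, at -0.90 ± 0.14 (limma adjusted p = 0.0306), against 1.99% of all genes (0.555% higher and 1.43% lower). The call of Eef1akmt2 was lost whichever array was left out. At an unadjusted p under 0.05, 24 of 59 members passed in that step, against 14.7% of all genes. The median change of the members in that step was -0.32.

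Over the whole span from day 0 to day 1, 8 of 59 members were called, all lower, against 8.39% of all genes (3.6% higher and 4.79% lower). Eef2 was the farthest, at -3.53 ± 0.15 (adjusted p = 0.000779). Eif4ebp2, at 0.22 and 0.20 on the day 0 arrays, changed by -0.93 ± 0.15. Eif3j1, Eif3a, Eef1akmt2, Eif2s2, Eif2b1 and Eif2ak4 changed by between -0.87 and -0.67. Fewer members were called when any day 0 or day 1 array was left out, and the share of all genes called is not given for these fits. The comparisons share the day 0, day 0.5 or day 1 arrays.

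In the LiCl cultures these genes lay mostly on the other side of 0 as deposited. The members' median was 0.17, and 36 of 59 (61%) were above 0 on both arrays, against 30.2% of all genes. The test called 2 members, both higher, against 2.58% of all genes (1.37% higher and 1.21% lower): Eef1g at 0.87 and 0.54 (fitted 0.70 ± 0.13, adjusted p = 0.0410) and Eif4a1 at 0.39 and 0.65 (fitted 0.52 ± 0.10, adjusted p = 0.0445). Both calls were lost whichever array was left out. With arrays scaled to equal spread 11 members were called higher, but the share of all genes called under that setting is not given here. With the sign turned the median is -0.17 and 4 members were called lower, Eif3f (-0.82), Eef1g (-0.70), Eif4a1 (-0.52) and Eif5a (-0.41), against 4.91% of all genes called in either direction, with the array correlations then above 0.

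The difference between day 1 and day 1 with LiCl turns on that direction, and on what the other LiCl channel holds. As deposited, 29 members were called higher with LiCl and 2 lower, against 18.9% of all genes (10.4% higher and 8.53% lower), with a median difference of 0.68. With the sign turned, 6 members were called against 6.83% of all genes, with a median of 0.27. The array value of Eef2 was higher with LiCl under either sign, at 2.39 ± 0.15 as deposited (adjusted p = 0.000184) and 2.53 ± 0.18 turned (adjusted p = 0.000846), since its LiCl values were near 0. Eif3a, Eif4ebp2, Eif2s2 and Eef1d were also called higher either way, and Eif2ak3 lower either way (-1.14 and -0.69). As deposited fewer members were called without either day 1 array or without LiCl array 2. The share of all genes called is not given for these fits.

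Other genes of the pathway gave mixed counts at day 1, when 11.1% of all genes were called lower and 9.38% higher. Of 18 genes for poly(A) binding, translational control, termination and recycling, 8 were called lower and none higher, with a median of -0.36. Paip2, an inhibitor of the poly(A)-binding protein, was lowest at -1.06 ± 0.13, and Pabpc1, the poly(A)-binding protein that loops the messenger RNA, was at -0.83 ± 0.12. Abce1, which splits spent ribosomes, was at -0.75 ± 0.16. Enzymes that make the hypusine of eIF5A or the diphthamide of eEF2 had 4 of 7 called lower, all of them diphthamide genes (Dph1, Dph2, Dph3 and Dph5). Of 7 mitochondrial translation factors 3 were called lower (Tsfm, Guf1 and Tufm), with a median of -0.60.

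The 11 measured genes of mTORC1 signalling had 1 called lower and 2 higher, with a median of 0.02. In all 27.3% of this list was called, near the 20.5% of all genes (11.1% lower and 9.38% higher). Rps6, a ribosomal protein and target of the S6 kinase, was at -0.72 ± 0.20. Mknk1, a kinase that phosphorylates eIF4E, was at 0.57 ± 0.10, and Tsc2, which restrains mTORC1, at 0.42 ± 0.10. Markers of dividing cells had a lower median than any of these lists. All 13 were called lower at day 1, with a median of -2.03 and a range from -2.57 to -0.99. On the LiCl arrays as deposited their median was 0.71, and 7 of 13 were called higher, against 1.37% of all genes. At day 0 and day 0.5 none of the 13 was called by limma, with 5 of 13 at an unadjusted p under 0.05 each time, against 15% of all genes at day 0 and 12.1% at day 0.5. The 6 Paneth cell markers, all called lower at day 1, had a median of -1.84. The part of either marker list in the translation factor result was not tested.

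**Figure D4:**
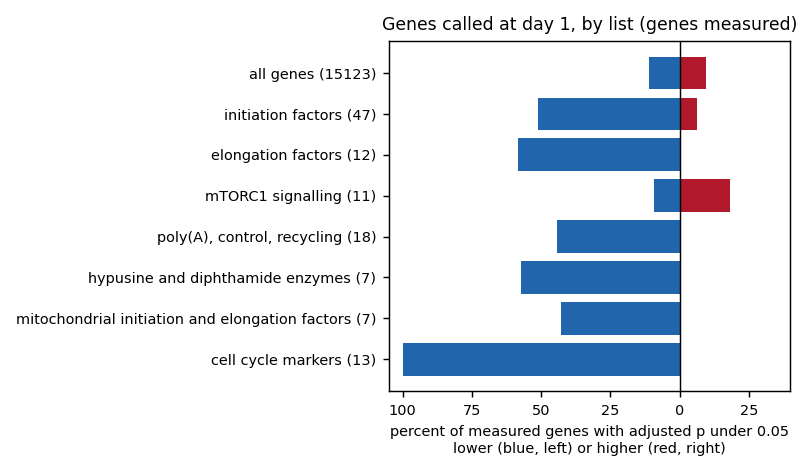
Percent of measured genes called at day 1, lower (blue, left of 0) and higher (red, right of 0), for all 15123 genes, the initiation and elongation factors and the other gene lists, with the number measured in brackets. All 13 cell cycle markers are called lower, and the translation lists other than mTORC1 signalling have more lower calls than the 11.1% of all genes.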

How the data were processed

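The authors deposited 1 log2 ratio per probe and array for 8 arrays. The log base is not stated and was taken as log2 from the spread of the values; the sources used here do not give the background correction or normalisation. Of 38467 probes, 22941 had 1 gene symbol in the platform annotation, 15526 had none and 0 had several. All 22941 gene IDs were found in the reference gene table. After 636 named control-series probes were left out, 22305 probes of 15123 genes were used, each gene being the mean of its probes.

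Arrays were centred on their median. limma 3.58.1 in R 4.3.3 fitted 4 group means and a dye term to all 8 arrays (null dye from the labels; both day 0.5 arrays are labelled alike, while the series' design text mentions swaps for the hybridisations), with 3 residual and 4.09 prior degrees of freedom. Changes between groups were contrasts of that fit. p-values were adjusted over all genes, with a threshold of 0.05. The number of arrays limits the precision. The fit was tested on simulated data with known changes added to 1 group. At day 1 it recovered 16.4% of changes of 0.5 log2 units, 71.6% of those of 1 and 93.9% of those of 2, with 8 false calls. A gene that was not called can therefore still differ. Few genes were changed in the simulation, whereas 20.5% of all genes were called at day 1, so these shares may not carry over. Members, lists and role groups were chosen with earlier results of these data known. Named genes were members called in any comparison, members whose probes differed by over 1 log2 unit in a group mean (5 of 29), and the member of a complex nearest 0; others were named to complete a list. Alternatives were single probes, probe medians, no dye term, another dye for day 0.5 array 2, no centring, equal spread, no LiCl arrays, a replicate block, left-out arrays, kept control-series probes and turned LiCl signs. Figures were drawn with matplotlib 3.10.9.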

Additional observations from a re-analysis of the deposited data

Results flagged for a closer look

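The log2 ratio of 41 pairs of a gene and a step differed between groups when limma tested the change of the ratio itself. From day 0 to day 0.5 this was Eef2 (-2.65), and from day 0.5 to day 1 Eef1akmt2 (-0.90). From day 0 to day 1 it was Eef2 (-3.53), Eif4ebp2 (-0.93), Eif3j1 (-0.87), Eif3a (-0.84), Eef1akmt2 (-0.81), Eif2s2 (-0.81), Eif2b1 (-0.79) and Eif2ak4 (-0.67).

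Between day 1 and day 1 with LiCl, with the LiCl values as deposited, the ratios rose for 29 genes: Eef2 (2.39), Eef1g (1.82), Eif3f (1.65), Eef1b2 (1.61), Eif4a3 (1.51), Eif1a (1.39), Eif1b (1.30), Eif3i (1.26), Eif4a1 (1.25), Eef1akmt2 (1.23), Eif2b1 (1.23), Eif2s3x (1.20), Eif2a (1.20), Eif3d (1.18), Eef1akmt4 (1.16), Eef1e1 (1.11), Eef1d (1.09), Eif3j1 (1.01), Eif1ax (0.98), Eif3a (0.89), Eif3e (0.87), Eif5a (0.82), Eif3m (0.81), Eif2s2 (0.81), Eif4e (0.76), Eif2ak4 (0.73), Eif4b (0.68), Eif4ebp2 (0.64) and Eif3k (0.55). They fell for Eif2ak1 (-0.72) and Eif2ak3 (-1.14). Which way the LiCl ratios run, and what their other channel holds, is not known, and with their sign turned only Eef2, Eif3a, Eif4ebp2, Eif2s2, Eef1d and Eif2ak3 were called, in the same directions.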

How the results depend on the processing

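Counts of members called moved by over 1.5 times under these settings, and the cause was not tested. The share of all genes called is not given for these settings, other than the turned sign. With the replicate block the count was 4 at day 0 (2 without it), 9 on the LiCl arrays (2), 5 for the step from day 0.5 to day 1 (1) and 17 for that from day 0 to day 1 (8), while at day 1 all 34 calls were kept among 39. Eef1a1, not called otherwise, was among those gained at day 1 (-0.48, limma adjusted p = 0.0233) and from day 0 to day 1 (-0.87, adjusted p = 0.0173). The replicate numbers were not taken as pairs, because the labels do not say that a number marks a shared animal, batch or day. The correlation over genes of array 1 minus array 2 was nonetheless above 0 between all groups, at 0.21 to 0.28. The fit as reported leaves this out. With arrays scaled to equal spread the count was 18 at day 1 (34), 11 on the LiCl arrays, 0 for day 0.5 against day 1 and 1 for day 0 against day 1. With control-series probes kept it was 1 at day 0, 0 at day 0.5 and 0 from day 0 to day 0.5, where Eef2 was lost. Without a dye term it was 2 at day 0.5 (1) and 4 from day 0.5 to day 1. That step also gave 4 with day 0.5 array 2 taken as Cy3, 2 with probe medians, 3 with single probes and 0 without the LiCl arrays. On the LiCl arrays single probes gave 1, and the turned sign 4; for day 1 against LiCl the turned sign gave 6 (31). With 1 array left out, counts ranged from 0 to 2 at day 0, 0 to 1 at day 0.5, 8 to 37 at day 1, 0 to 1 with LiCl, and, for the changes, 0 to 1 from day 0 to day 0.5, 0 in every case from day 0.5 to day 1, 1 to 10 over the whole first day and 12 to 30 for day 1 against LiCl. Single probes turned the sign of Eef2 at day 0.5 (0.11) and from day 0 to day 0.5 (0.11), Eif3e at day 1 (0.01) and for day 1 against LiCl (-0.026), and Eif4a2 at day 1 (0.035). Each zero above is a count by limma; by an unadjusted p under 0.05, 8 of 59 members passed at day 0.5 (12.1% of all genes), 3 for day 0 against day 0.5 (8.83%) and 24 for day 0.5 against day 1 (14.7%) in the fit as reported. Signal over background is unknown, so dim probes could not be told from bright ones.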
